A study of Arabidopsis thaliana with 10 samples.

Results

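The genes described here are 10 loci of brassinosteroid synthesis, inactivation and signalling in Arabidopsis thaliana, out of 33557 genes with a value in the deposited tables. They were taken by locus identifier: the synthesis genes DWF4, CPD, DET2, ROT3, BR6OX1 and BR6OX2, the inactivation gene BAS1, the receptor gene BRI1 and the transcription factor genes BZR1 and BES1. Messenger RNA was sequenced from whole Columbia seedlings aged 4 days, all kept under blue light without a dark period, at 1 µmol m-2 s-1. The 10 libraries fell into 5 genotypes with 2 biological replicates each: a CRY2 overexpressor (CRY2oe), the CRY2 mutant cry2-1, a double mutant labelled ubp12ubp13, a UBP13 overexpressor (UBP13oe), and the wild type (WT). CRY2 is a blue-light receptor, UBP12 and UBP13 are deubiquitinases, and by its title the series asks how these enzymes act on CRY2 and on growth. The promoters that drive the overexpression, the number of independent lines and the seedlings pooled per library are not given in the sources used here.

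Brassinosteroids are steroid hormones that promote cell elongation, and mutants that lack them are dwarfs that develop partly as if in light when grown in darkness. The hormone is made from plant sterols by DET2, a steroid reductase, and by a set of cytochrome P450 enzymes, and it is inactivated by others such as BAS1. It binds the receptor kinase BRI1 at the cell surface, which leads through the kinase BIN2 to the transcription factors BZR1 and BES1. BZR1 binds the upstream regions of DWF4 and CPD and lowers their expression, so that synthesis is under negative feedback.

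Levels are deposited FPKM (fragments per kilobase of transcript, scaled to the mapped fragments of the library), given per library or as mean ± SD of 2 libraries. Changes are differences of log2(FPKM + 1), written as log2 fold changes with their standard error (SE), and a gene was called at a limma adjusted p under 0.05 over all genes tested. CRY2 stood at 3865 ± 81.2 FPKM in CRY2oe and at 0 and 0.0187 FPKM in the cry2-1 libraries, against 115 ± 7.19 FPKM in WT. The gene models AT1G04410 and AT1G04420 next to CRY2 were at or below 0.114 FPKM in every CRY2oe and cry2-1 library. WT held them at 439 ± 6.13 and 31.1 ± 1.18 FPKM, so CRY2oe and cry2-1 share that loss. In their comparisons with WT the loss and the CRY2 level vary together and cannot be told apart, and the part of the loss was not tested. CRY2oe against cry2-1 compares lines that both have it. UBP13 stood at 67.6 ± 2.06 FPKM in UBP13oe and at 23.9 ± 0.416 FPKM in the ubp12ubp13-labelled libraries, against 27.7 ± 0.833 FPKM in WT. Replicate 1 of these libraries held UBP12 at 397 FPKM and the estimate failed for replicate 2, against 34.9 ± 0.181 FPKM in WT. RNA levels therefore leave the genotype of the ubp12ubp13-labelled libraries untested. The steps of low FPKM values put the depth at 15.4 M (ubp12ubp13 replicate 2) to 30.9 M fragments (UBP13oe replicate 2), and 3 fragments on 1 kb then correspond to between 0.0972 and 0.195 FPKM. Replicates correlated across genes at 0.983 to 0.989 on the log2 scale, and libraries from unlike genotypes at 0.929 to 0.975. Plastid-encoded genes held 15.5% to 18% of FPKM in the CRY2oe, cry2-1 and ubp12ubp13-labelled libraries and 9.06% and 9.58% in UBP13oe, against 8.57% and 11.2% in WT, and the part of this in the results was not tested beyond a rescaling to nuclear FPKM. Whole seedlings mix organs and cell types, so fewer cells of a type and less RNA per cell cannot be told apart.

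All 10 members passed the filter of 1 FPKM in at least 2 libraries. The highest was CPD, at up to 299 FPKM, and the lowest BR6OX1, at down to 2.83 FPKM. At the estimated depth and the longest RefSeq transcript, the lowest BR6OX1 value stands for about 89 fragments and a counting error of 10.6%, while every other member rested on at least 224 fragments in each library. Gene positions are those of the files, on TAIR10. DET2, ROT3 and BZR1 each overlap 1 other locus in the files, which may share fragments with them. BZR1 and BES1 are close relatives, with 78.7% identical bases over their aligned coding sequences. Of the 1610 stretches of 50 bases in the BZR1 transcript, 22 also occur in that of BES1. The longest identical run of coding bases, 71 long, is shown because reads inside it cannot be assigned to either gene by sequence.

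Run shared by BZR1 and BES1, both on chromosome 1: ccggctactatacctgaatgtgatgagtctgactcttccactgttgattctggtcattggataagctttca

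BR6OX1 and BR6OX2, with 81.9% identical coding bases, shared 0 such stretches. The upstream regions of CPD, DWF4 and BZR1 are shown next, because CPD and DWF4 are the synthesis genes known for feedback control, and BZR1 encodes the factor that binds there. Each is the 300 bases before the RefSeq gene start on TAIR10.1, written 5′ to 3′ along the gene.

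CPD, chr5:1706949-1707248, minus strand: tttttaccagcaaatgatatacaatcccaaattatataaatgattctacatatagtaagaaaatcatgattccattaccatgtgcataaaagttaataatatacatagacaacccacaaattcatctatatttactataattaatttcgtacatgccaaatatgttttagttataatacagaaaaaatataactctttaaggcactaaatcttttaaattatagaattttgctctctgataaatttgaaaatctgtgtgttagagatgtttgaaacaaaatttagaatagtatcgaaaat

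DWF4, chr3:18817406-18817705, minus strand: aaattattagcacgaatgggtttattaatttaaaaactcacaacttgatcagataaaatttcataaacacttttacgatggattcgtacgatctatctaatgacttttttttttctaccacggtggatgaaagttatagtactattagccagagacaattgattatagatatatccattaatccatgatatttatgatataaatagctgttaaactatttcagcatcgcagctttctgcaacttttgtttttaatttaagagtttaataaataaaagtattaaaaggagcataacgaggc

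BZR1, chr1:28185204-28185503, plus strand: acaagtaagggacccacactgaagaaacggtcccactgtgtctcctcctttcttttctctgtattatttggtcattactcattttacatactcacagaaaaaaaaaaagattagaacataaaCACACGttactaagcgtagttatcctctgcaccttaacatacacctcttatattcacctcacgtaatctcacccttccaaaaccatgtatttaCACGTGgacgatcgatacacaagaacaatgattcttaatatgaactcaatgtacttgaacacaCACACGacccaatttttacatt

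Capitals mark the letters searched on both strands: CGTGTG and CGTGCG, forms of the brassinosteroid-response element, and CACGTG, the G-box, none of which overlapped another here. CGTGTG or CGTGCG occurred in the window of 1 of the 10 members, BZR1, and in 7.64% of 27437 promoters of the same length. In BZR1 it lay on the other strand from 178 to 173 and from 22 to 17 bases before the start. CACGTG occurred from 85 to 80 bases before the start of BZR1, in no window of the other 9 members, and in 7.09% of promoters. The other members, CPD and DWF4 included, held none of these letters in the 300 bases before their RefSeq start. That start lay upstream of the start in the files, and the bases between them were not searched. For CPD they lie between 1706787, the start in the files, and 1706949, where the window begins. For DWF4 they lie between 18817244 and 18817406. Only the BZR1 window, ending at 28185503, met the start in the files, at 28185504. Whether the unsearched bases hold these letters was not tested.

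CPD (AT5G05690, chr5:1702688-1706787), which encodes a P450 that oxidises early intermediates of the pathway, was lower than in WT in each of the other genotypes. It stood at 243 and 237 FPKM in CRY2oe, 170.5 and 177 FPKM in cry2-1, 154 and 140.3 FPKM in the ubp12ubp13-labelled libraries, and 164 and 159.5 FPKM in UBP13oe, against 294 and 299 FPKM in WT. The 5 genotypes did not overlap in CPD: WT was highest, CRY2oe next, then cry2-1 and UBP13oe, and the ubp12ubp13-labelled libraries were lowest. CPD fell in the ubp12ubp13-labelled libraries (-1.01 ± 0.05 on the log2 scale, limma adjusted p = 2.11e-06), in UBP13oe (-0.87 ± 0.05, adjusted p = 3.91e-05) and in cry2-1 (-0.77 ± 0.05, adjusted p = 2.71e-05). The fall in CRY2oe was smaller, at -0.30 ± 0.05 (limma adjusted p = 0.00504), and CPD was higher in CRY2oe than in cry2-1 (0.46 ± 0.05, adjusted p = 0.00025). These 5 calls held with any library left out. Against UBP13oe, CPD was also called lower in the ubp12ubp13-labelled libraries (-0.14 ± 0.05, limma adjusted p = 0.0492). That call was lost with any library other than ubp12ubp13 replicate 1 left out (adjusted p up to 0.276) and, with libraries rescaled by the median of ratios, the difference was -0.07 (adjusted p = 0.358).

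DWF4 (AT3G50660, chr3:18814140-18817244), which encodes the rate-limiting hydroxylase of the pathway, did not follow CPD. It was at 25.3 and 22.5 FPKM in CRY2oe, 35.2 and 34.6 FPKM in cry2-1, 27.4 and 23.3 FPKM in the ubp12ubp13-labelled libraries, and 31.6 and 34.9 FPKM in UBP13oe, against 31.6 and 33.5 FPKM in WT. The CRY2oe libraries and the ubp12ubp13-labelled ones overlapped each other and lay below all the rest, and UBP13oe overlapped both cry2-1 and WT. DWF4 fell in CRY2oe (-0.43 ± 0.09 on the log2 scale, limma adjusted p = 0.0103) and in the ubp12ubp13-labelled libraries (-0.35 ± 0.09, adjusted p = 0.00899). In cry2-1 and UBP13oe its differences from WT were 0.10 and 0.03, with 95% intervals from -0.10 to 0.30 and from -0.17 to 0.23. DWF4 was lower in CRY2oe than in cry2-1 (-0.53 ± 0.09, limma adjusted p = 0.00208) and lower in the ubp12ubp13-labelled libraries than in UBP13oe (-0.38 ± 0.09, adjusted p = 0.00656). The call in CRY2oe was lost without CRY2oe replicate 2 (limma adjusted p = 0.0723), and the calls of the ubp12ubp13-labelled libraries were lost without their replicate 2 against WT (0.0575) and without UBP13oe replicate 2 against UBP13oe (0.0508).

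**Figure D1:**
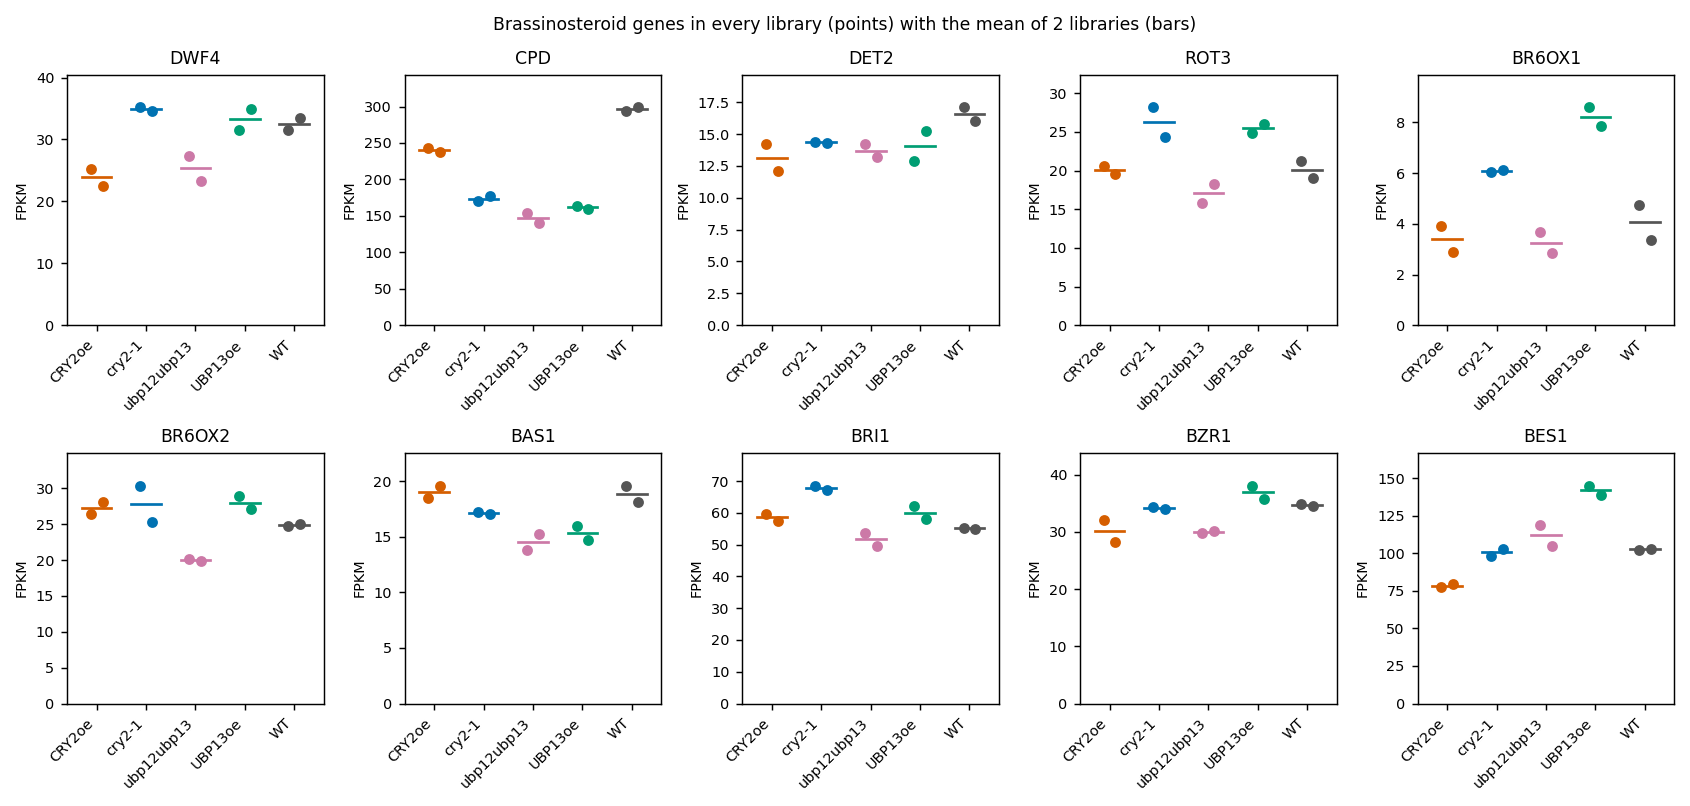
FPKM of the 10 brassinosteroid genes (vertical axes, each from 0) in every library by genotype; points are libraries and bars the mean of 2. CPD is at 294 and 299 FPKM in WT and at or below 243 FPKM in all other libraries, and BES1 is at 145 and 139 FPKM in UBP13oe against 77.2 and 79.8 FPKM in CRY2oe.

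DET2 (AT2G38050, chr2:15921136-15922313), the steroid reductase gene, averaged 13.1 ± 1.45 FPKM in CRY2oe, 14.3 ± 0.0477 FPKM in cry2-1, 13.7 ± 0.684 FPKM in the ubp12ubp13-labelled libraries and 14.1 ± 1.64 FPKM in UBP13oe, against 16.5 ± 0.821 FPKM in WT. Both WT libraries lay above all others. UBP13oe overlapped the other 3 genotypes and CRY2oe overlapped the ubp12ubp13-labelled libraries, while both cry2-1 libraries lay above those of CRY2oe and the ubp12ubp13 label. DET2 fell in CRY2oe (-0.32 ± 0.09 on the log2 scale, limma adjusted p = 0.0416) and in the ubp12ubp13-labelled libraries (-0.26 ± 0.09, adjusted p = 0.0452). The call in CRY2oe was lost without any cry2-1, ubp12ubp13 or WT library or CRY2oe replicate 2 (limma adjusted p up to 0.222). That of the ubp12ubp13-labelled libraries was lost without any cry2-1, ubp12ubp13 or WT library (up to 0.182). In cry2-1 and UBP13oe the differences of -0.19 and -0.22 were not called, and after rescaling they were -0.34 and -0.38 (limma adjusted p = 0.0219 and 0.0138).

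ROT3 (AT4G36380, chr4:17187528-17192317), a P450 gene whose mutants have short, round leaves, stood at 20.6 and 19.6 FPKM in CRY2oe, 28.2 and 24.3 FPKM in cry2-1, 15.8 and 18.3 FPKM in the ubp12ubp13-labelled libraries, and 24.9 and 26 FPKM in UBP13oe, against 21.2 and 19 FPKM in WT. The cry2-1 and UBP13oe libraries overlapped each other above the rest, CRY2oe overlapped WT, and the ubp12ubp13-labelled libraries were lowest. Against WT these were at -0.23 (limma adjusted p = 0.0701, not called), and after rescaling at -0.31 (adjusted p = 0.018). ROT3 rose in cry2-1 (0.37 ± 0.09 on the log2 scale, limma adjusted p = 0.0137) and in UBP13oe (0.33 ± 0.09, adjusted p = 0.0225). Neither rise was called after rescaling (0.22 with adjusted p = 0.0897, and 0.17 with adjusted p = 0.188). The rise in cry2-1 was lost without cry2-1 replicate 1 or WT replicate 2, and that in UBP13oe without either UBP13oe library or WT replicate 2 (limma adjusted p up to 0.116). ROT3 was lower in the ubp12ubp13-labelled libraries than in UBP13oe (-0.55 ± 0.09, limma adjusted p = 0.00142), with any library left out. It was lower in CRY2oe than in cry2-1 (-0.36 ± 0.09, adjusted p = 0.016), a call lost without cry2-1 replicate 1 or CRY2oe replicate 2 (up to 0.109).

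BR6OX1 (AT5G38970, chr5:15594674-15597885) and BR6OX2 (AT3G30180, chr3:11810737-11813765) encode the oxidases of the last steps, which give the active hormone. BR6OX1 had the widest range of the members, with a mean in UBP13oe 2.53 times that in the ubp12ubp13-labelled libraries. It stood at 3.9 and 2.87 FPKM in CRY2oe, 6.03 and 6.12 FPKM in cry2-1, 3.68 and 2.83 FPKM in the ubp12ubp13-labelled libraries, and 8.6 and 7.86 FPKM in UBP13oe, against 4.75 and 3.38 FPKM in WT. The UBP13oe libraries lay above all others, cry2-1 came next, and the other 3 genotypes overlapped. BR6OX1 rose in UBP13oe (0.88 ± 0.16 on the log2 scale, limma adjusted p = 0.00361) and in cry2-1 (0.50 ± 0.16, adjusted p = 0.0392). The rise in cry2-1 was lost without either cry2-1 library, either UBP13oe library or WT replicate 2 (up to 0.205) and after rescaling (0.37, adjusted p = 0.121). BR6OX1 was lower in the ubp12ubp13-labelled libraries than in UBP13oe (-1.12 ± 0.16, limma adjusted p = 0.00065), with any library left out. It was lower in CRY2oe than in cry2-1 (-0.70 ± 0.16, adjusted p = 0.0108), a call lost without either cry2-1 library or CRY2oe replicate 2 (up to 0.0754).

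BR6OX2 stood at 26.4 and 28.1 FPKM in CRY2oe, 30.4 and 25.3 FPKM in cry2-1, 20.2 and 19.9 FPKM in the ubp12ubp13-labelled libraries, and 28.9 and 27.1 FPKM in UBP13oe, against 24.7 and 25 FPKM in WT. The libraries labelled ubp12ubp13 lay below all others, and CRY2oe, cry2-1 and UBP13oe overlapped. BR6OX2 fell in the ubp12ubp13-labelled libraries, both against WT (-0.29 ± 0.08 on the log2 scale, limma adjusted p = 0.0141) and against UBP13oe (-0.46 ± 0.08, adjusted p = 0.00171). The call against WT was lost without ubp12ubp13 replicate 2 (limma adjusted p = 0.0593) or WT replicate 2 (0.0546). In CRY2oe, cry2-1 and UBP13oe the differences from WT were 0.13, 0.15 and 0.17 and were not called. Leaving out cry2-1 replicate 2 made the difference of cry2-1 a call (limma adjusted p = 0.019), and leaving out either cry2-1 library did so for UBP13oe (0.0463 and 0.0459).

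BAS1 (AT2G26710, chr2:11380492-11383612) encodes a P450 that hydroxylates and so inactivates the hormone, and its product lowers hormone levels. It stood at 18.5 and 19.6 FPKM in CRY2oe, 17.2 and 17 FPKM in cry2-1, 13.8 and 15.2 FPKM in the ubp12ubp13-labelled libraries, and 16 and 14.7 FPKM in UBP13oe, against 19.6 and 18.1 FPKM in WT. CRY2oe overlapped WT, cry2-1 came next, and the libraries of UBP13oe and the ubp12ubp13-labelled ones overlapped each other below the rest. BAS1 fell in the ubp12ubp13-labelled libraries (-0.36 ± 0.07 on the log2 scale, limma adjusted p = 0.00241), with any library left out. It fell in UBP13oe (-0.28 ± 0.07, adjusted p = 0.0119), a call lost without UBP13oe replicate 2 (0.0828) or WT replicate 1 (0.0625). Between the ubp12ubp13-labelled libraries and UBP13oe the difference was -0.08, with a 95% interval from -0.24 to 0.08. In cry2-1 BAS1 was at -0.13 and not called, and after rescaling at -0.28 (adjusted p = 0.0176). Between CRY2oe and cry2-1 it was at 0.14 and not called, and after rescaling at 0.22 (adjusted p = 0.0451).

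BRI1 (AT4G39400, chr4:18324661-18328826), the receptor kinase gene, was at 59.7 and 57.4 FPKM in CRY2oe, 68.6 and 67.2 FPKM in cry2-1, 53.7 and 49.6 FPKM in the ubp12ubp13-labelled libraries, and 62.2 and 58 FPKM in UBP13oe, against 55.2 and 55 FPKM in WT. Both cry2-1 libraries lay above all others and both ubp12ubp13-labelled ones below all others. BRI1 rose in cry2-1 (0.30 ± 0.05 on the log2 scale, limma adjusted p = 0.00278), with any library left out but not after rescaling (0.15, adjusted p = 0.0824). It was lower in CRY2oe than in cry2-1 (-0.21 ± 0.05, adjusted p = 0.0147) and lower in the ubp12ubp13-labelled libraries than in UBP13oe (-0.21 ± 0.05, adjusted p = 0.00944). Rescaling ended both calls (-0.13 and -0.14, adjusted p = 0.112 and 0.0715). So did leaving out either cry2-1 library or CRY2oe replicate 2 for CRY2oe against cry2-1, and UBP13oe replicate 1 or ubp12ubp13 replicate 2 for the second call (limma adjusted p up to 0.0926). Against WT the ubp12ubp13-labelled libraries were at -0.09 and not called, and after rescaling at -0.18 (adjusted p = 0.025).

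BES1 (AT1G19350, chr1:6688522-6690414) and BZR1 (AT1G75080, chr1:28185504-28188075) encode the transcription factors that act at the end of the pathway and whose activity is set mainly by phosphorylation of the protein, which RNA levels do not show. BES1 was at 77.2 and 79.8 FPKM in CRY2oe, 98.1 and 103 FPKM in cry2-1, 119 and 105 FPKM in the ubp12ubp13-labelled libraries, and 145 and 139 FPKM in UBP13oe, against 102 and 103 FPKM in WT. UBP13oe lay above and CRY2oe below all other libraries, and cry2-1 overlapped WT. BES1 rose in UBP13oe (0.46 ± 0.06 on the log2 scale, limma adjusted p = 0.000899) and fell in CRY2oe (-0.39 ± 0.06, adjusted p = 0.0043). It was lower in CRY2oe than in cry2-1 (-0.35 ± 0.06, adjusted p = 0.00299) and lower in the ubp12ubp13-labelled libraries than in UBP13oe (-0.35 ± 0.06, adjusted p = 0.00202). These 4 calls held with any library left out and after rescaling. In the ubp12ubp13-labelled libraries BES1 was at 0.12 against WT, with a 95% interval from -0.03 to 0.26, and became a call without their replicate 2 (limma adjusted p = 0.0146).

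BZR1 moved less. It averaged 30.1 ± 2.69 FPKM in CRY2oe, 34.2 ± 0.274 FPKM in cry2-1, 29.9 ± 0.255 FPKM in the ubp12ubp13-labelled libraries and 37 ± 1.64 FPKM in UBP13oe, against 34.7 ± 0.203 FPKM in WT. The CRY2oe libraries and the ubp12ubp13-labelled ones overlapped each other below the rest, and UBP13oe lay above all others. BZR1 was lower in the ubp12ubp13-labelled libraries than in UBP13oe (-0.30 ± 0.06 on the log2 scale, limma adjusted p = 0.00418), with any library left out. It fell in the ubp12ubp13-labelled libraries against WT (-0.21 ± 0.06, adjusted p = 0.0209), a call lost without any of these 4 libraries (up to 0.0772). It fell in CRY2oe against WT (-0.20 ± 0.06, adjusted p = 0.0443) and against cry2-1 (-0.18 ± 0.06, adjusted p = 0.0479). Both calls of CRY2oe were lost with any library other than CRY2oe replicate 1 left out (limma adjusted p up to 0.283), and the one against cry2-1 also after rescaling (-0.11, adjusted p = 0.242).

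Counted together, the members fell more than they rose in CRY2oe and in the ubp12ubp13-labelled libraries. In CRY2oe 5 of 10 fell and 0 rose against WT, where 26.2% of all genes tested were called, 16.5% higher and 9.63% lower. The 5 were DWF4, CPD, DET2, BZR1 and BES1. Without CRY2oe replicate 2 the count was 2, and without any cry2-1, ubp12ubp13 or WT library it was 3. In the ubp12ubp13-labelled libraries, 6 of 10 fell and 0 rose against WT (8 fell and 0 rose rescaled). Of all genes tested there, 56.8% were called, 34.6% higher and 22.2% lower. DWF4, CPD, DET2, BR6OX2, BAS1 and BZR1 were the 6, and 3 were left without WT replicate 2.

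In cry2-1 and UBP13oe the members moved in both directions. In cry2-1, 3 of 10 rose (ROT3, BR6OX1 and BRI1) and CPD alone fell, where 43.6% of all genes tested were called, 31.7% higher and 11.8% lower. The median change of all genes in cry2-1 was 0.12, and relative to it CPD stood at -0.89, BR6OX1 at 0.37, ROT3 at 0.24 and BRI1 at 0.17. Rescaled, 0 members rose and 3 fell in cry2-1, namely CPD, DET2 and BAS1, and 2 members were called without cry2-1 replicate 1 or WT replicate 2. In UBP13oe 3 rose (ROT3, BR6OX1 and BES1) and 2 fell (CPD and BAS1), against 2 and 3 rescaled, where 43.9% of all genes tested were called, 35.2% higher and 8.74% lower. The median of all genes in UBP13oe was 0.15, and relative to it CPD stood at -1.02, BR6OX1 at 0.73 and BES1 at 0.31. The 4 comparisons with WT share the WT libraries. The shares of members that rose in cry2-1 and in UBP13oe, 30% each, were near the 31.7% and 35.2% of all genes. So was the share that fell in cry2-1, 10% beside 11.8%.

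Both remaining comparisons leave out WT. In CRY2oe against cry2-1, 6 of 10 members fell and CPD alone rose (2 rose and 4 fell rescaled), where 37.4% of all genes tested were called, 13.5% higher and 24% lower. The count of 7 came to 3 without cry2-1 replicate 1 or CRY2oe replicate 2 and to 4 without cry2-1 replicate 2. In the ubp12ubp13-labelled libraries against UBP13oe, 8 of 10 members fell and 0 rose (6 and 0 rescaled), where 52.9% of all genes tested were called, 20.8% higher and 32.1% lower. The members not called there were DET2, at -0.03, and BAS1, at -0.08. The falls of ROT3, BR6OX1, BR6OX2, BZR1 and BES1 held with any library left out.

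**Figure D2:**
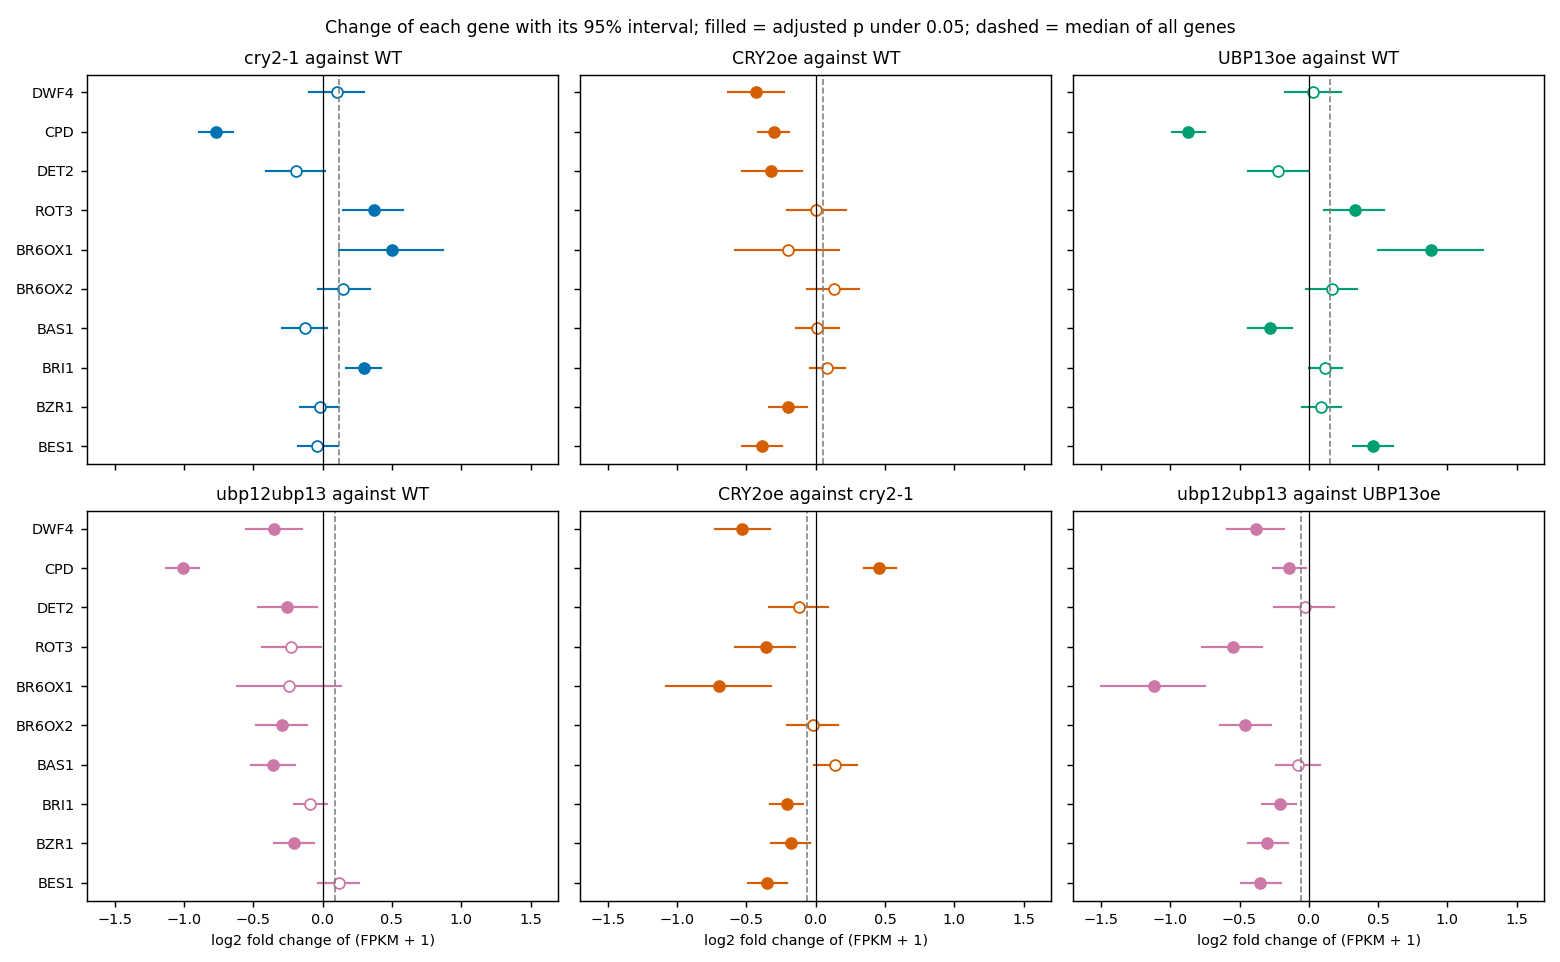
Log2 fold change of (FPKM + 1) of each gene (horizontal axes) in the 6 comparisons, with its 95% interval; filled points were called at an adjusted p under 0.05, and the dashed line is the median of all genes tested. CPD is left of 0 in the 4 comparisons with WT, from -1.01 in the ubp12ubp13-labelled libraries to -0.30 in CRY2oe, and all points are at or left of -0.03 in ubp12ubp13 against UBP13oe.

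The members did not share one profile. Across the 10 libraries, on the log2 scale, CPD correlated with BAS1 at r = 0.85 and with DWF4 at r = 0.01. DWF4, BR6OX1 and ROT3 correlated with BZR1 at r = 0.83, 0.84 and 0.70, and BES1 with BAS1 at r = -0.70. These are descriptions over 10 libraries of 5 genotypes, which share replicates and depth. Among 15560 other genes with a mean of at least 5 FPKM in some genotype, NAMT1 (r = 0.970), AT5G63905 (0.960) and AT5G03610 (0.955) were most like DWF4. NAMT1 averaged 4.12 FPKM in CRY2oe, 7.22 FPKM in cry2-1, 3.67 FPKM in the ubp12ubp13-labelled libraries and 6.57 FPKM in UBP13oe, against 6.59 FPKM in WT. Most like BAS1 were RMA1 (r = 0.951), BMY6 (0.950) and AT4G16330 (0.949), with RMA1 at 55.2, 38.2, 21.2 and 29.5 FPKM in CRY2oe, cry2-1, the ubp12ubp13-labelled libraries and UBP13oe, against 55.3 FPKM in WT.

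A wider list of 58 pathway genes other than the members, 54 of which entered the fit, gave the surroundings of these values. BSU1, CDG1, CESTA and TCP1 stayed below the filter, and DWF1 had failed estimates in both CRY2oe libraries, which leaves 53 for CRY2oe. In CRY2oe 9 of 53 rose and 9 fell (3 and 14 rescaled), 17% each beside 16.5% and 9.63% of all genes, with 10 called in all without CRY2oe replicate 1 and 7 without CRY2oe replicate 2. In cry2-1 26 of 54 rose and 8 fell (14 and 11 rescaled), or 48.1% and 14.8% beside 31.7% and 11.8% of all genes. In the ubp12ubp13-labelled libraries, 14 rose and 21 fell (7 and 24 rescaled), or 25.9% and 38.9% beside 34.6% and 22.2% of all genes. In UBP13oe 21 rose and 6 fell (12 and 17 rescaled), 38.9% and 11.1%, near the 35.2% and 8.74% of all genes. In CRY2oe against cry2-1, 5 of 53 rose and 26 fell (6 and 17 rescaled), or 9.43% and 49.1% beside 13.5% and 24% of all genes. In the ubp12ubp13-labelled libraries against UBP13oe 7 of 54 rose and 25 fell (11 and 24 rescaled), or 13% and 46.3% beside 20.8% and 32.1%.

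Upstream of the members, sterol genes moved in both directions. Of 9 sterol and brassinosteroid synthesis genes, 3 rose and 3 fell in the ubp12ubp13-labelled libraries (2 and 3 rescaled). That is 33.3% each, beside 34.6% and 22.2% of all genes. SMT1 and SMT2, sterol methyltransferase genes, were at 134 ± 0.875 against 189 ± 0.0311 FPKM and 129 ± 5.57 against 173 ± 0.438 FPKM in those libraries and WT. SMT1 also fell in cry2-1 (151 ± 1.98 FPKM) and was higher in CRY2oe (198 ± 1.13 FPKM) than in cry2-1 (0.39 on the log2 scale, limma adjusted p = 8.26e-05). In CRY2oe 1 of 8 such genes rose and 1 fell (0 and 2 rescaled). The count in cry2-1 was 3 up and 2 down of 9 (1 and 2 rescaled), and UBP13oe had 4 up and 0 down (1 and 4 rescaled). The shares in CRY2oe were 12.5% each, beside 16.5% and 9.63% of all genes. In cry2-1 they were 33.3% and 22.2%, beside 31.7% and 11.8%, and in UBP13oe 44.4% and 0%, beside 35.2% and 8.74%. CYP90D1, a P450 gene related to ROT3, was at 4.21 ± 0.443 FPKM in UBP13oe, against 2.62 ± 0.108 FPKM in WT (0.52, adjusted p = 0.00563).

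Among 6 other inactivation genes, 1 rose in CRY2oe, 2 rose in cry2-1, 1 rose and 2 fell in the ubp12ubp13-labelled libraries, and 4 rose in UBP13oe (rescaled, 1 rose and 1 fell, 2 rose and 1 fell, 1 rose and 2 fell, and 2 rose). Rises made up 16.7% of the 6 in CRY2oe, 33.3% in cry2-1, 16.7% in the ubp12ubp13-labelled libraries and 66.7% in UBP13oe. Of all genes, 16.5%, 31.7%, 34.6% and 35.2% rose in these, in that order. Falls came to 33.3% in the ubp12ubp13-labelled libraries, beside 22.2% of all genes. BAT1 and BIA1 encode acyltransferases. BAT1 was at 13.5 ± 1.59 FPKM in the ubp12ubp13-labelled libraries, against 44.9 ± 1.68 FPKM in UBP13oe (-1.66 on the log2 scale, limma adjusted p = 1.86e-05). BIA1 was at 3.98 ± 0.356 FPKM in the ubp12ubp13-labelled libraries, against 9.86 ± 0.829 FPKM in UBP13oe (-1.12, adjusted p = 0.000105). CYP72C1, a P450 gene related to BAS1, was at 18 ± 0.344 FPKM in CRY2oe, against 23.2 ± 0.968 FPKM in cry2-1 (-0.34, adjusted p = 0.00726), a call lost with 1 of the 10 libraries left out. UGT73C5, which encodes a glucosyltransferase of brassinosteroids, ran the other way, at 26.4 ± 0.976 FPKM in CRY2oe against 13.7 ± 1.44 FPKM in cry2-1 (0.90, adjusted p = 0.000663).

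The list of 7 receptor-level genes held 6 receptor and co-receptor genes and BKI1, which encodes an inhibitor that holds BRI1 inactive. Of the 7, 6 rose and 1 fell in cry2-1 (3 and 1 rescaled) and 5 rose and 0 fell in UBP13oe (4 and 1 rescaled). In CRY2oe 3 rose and 1 fell (2 and 1 rescaled), and in the ubp12ubp13-labelled libraries 3 rose and 2 fell (1 and 3 rescaled). The rises came to 85.7% in cry2-1 and 71.4% in UBP13oe, beside 31.7% and 35.2% of all genes. They were 42.9% in both CRY2oe and the ubp12ubp13-labelled libraries, beside 16.5% and 34.6%. Falls were 14.3% in cry2-1 and CRY2oe, beside 11.8% and 9.63%, and 28.6% in the ubp12ubp13-labelled libraries, beside 22.2%. BKI1 was the gene that fell in cry2-1 and in CRY2oe, and in the ubp12ubp13-labelled libraries BKI1 and the co-receptor gene BAK1 fell. SERK4, a co-receptor gene, rose in each of these genotypes, to 5.03 ± 0.244 FPKM in CRY2oe, 5.74 ± 0.297 FPKM in cry2-1, 7.2 ± 0.269 FPKM in the ubp12ubp13-labelled libraries and 6.7 ± 0.393 FPKM in UBP13oe, against 3.72 ± 0.0813 FPKM in WT. BKI1 was at 14.2 ± 0.198 FPKM in CRY2oe, 14.7 ± 0.407 FPKM in cry2-1 and 12.5 ± 1.35 FPKM in the ubp12ubp13-labelled libraries. All were called lower than WT at 19.1 ± 0.335 FPKM. UBP13oe at 18 ± 0.469 FPKM was not called, though after rescaling BKI1 was lower there too (-0.24, limma adjusted p = 0.0295).

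Of the 9 tested genes for cytoplasmic kinases and phosphatases, 4 rose and 3 fell in the ubp12ubp13-labelled libraries (1 and 3 rescaled). BIN2, the kinase that phosphorylates BZR1 and BES1, was at 135 ± 6.96 FPKM in them, against 206 ± 5.32 FPKM in WT (-0.61 on the log2 scale, limma adjusted p = 1.47e-05). In CRY2oe, cry2-1 and UBP13oe it was at 208 ± 1.27, 209 ± 1.83 and 201 ± 2.82 FPKM and not called, though after rescaling it was lower in UBP13oe (-0.21, adjusted p = 0.0103). BSK1, a signalling kinase gene, was at 46.7 ± 1.05 FPKM in the ubp12ubp13-labelled libraries, against 72.3 ± 3.12 FPKM in WT (-0.62, adjusted p = 1.5e-05). The 4 that rose in them were BSK2, BSK3, BIL1 and BIL2, of which BSK2 alone was called after rescaling. BSK2 was at 9.99 ± 0.0192 FPKM, against 5.92 ± 0.315 FPKM in WT (0.67, limma adjusted p = 0.000155). Of the 9, CRY2oe had 2 up and 1 down (0 and 2 rescaled). In cry2-1 4 were up and 2 down (1 and 2 rescaled), and in UBP13oe 2 up and 0 down (1 and 4 rescaled). Shares up and down were 44.4% and 33.3% in the ubp12ubp13-labelled libraries, beside 34.6% and 22.2% of all genes. They were 22.2% and 11.1% in CRY2oe, beside 16.5% and 9.63%, and 44.4% and 22.2% in cry2-1, beside 31.7% and 11.8%. In UBP13oe they were 22.2% and 0%, beside 35.2% and 8.74%.

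Of the 9 tested transcription factor and partner genes, CRY2oe had 2 up and 0 down (0 and 0 rescaled) and cry2-1 had 4 up and 1 down (2 and 3 rescaled). The ubp12ubp13-labelled libraries had 2 up and 2 down (1 and 3 rescaled), and UBP13oe had 2 up and 3 down (1 and 4 rescaled). Shares up and down were 22.2% and 0% in CRY2oe, beside 16.5% and 9.63% of all genes. In cry2-1 they were 44.4% and 11.1%, beside 31.7% and 11.8%. They were 22.2% each in the ubp12ubp13-labelled libraries, beside 34.6% and 22.2%, and 22.2% and 33.3% in UBP13oe, beside 35.2% and 8.74%. MYBL2, a repressor that acts with BES1 and also limits flavonoid synthesis, was at 134 ± 8.95 FPKM in CRY2oe, against 53.8 ± 5.41 FPKM in cry2-1 (1.30 on the log2 scale, limma adjusted p = 2.65e-05). BIM1, a partner of BES1, was at 30.2 ± 0.688 FPKM in CRY2oe, against 48.4 ± 2.63 FPKM in cry2-1 (-0.66, adjusted p = 0.000139). BEH4, a relative of BZR1, was at 23.6 ± 1.21 FPKM in the ubp12ubp13-labelled libraries, against 36.4 ± 0.172 FPKM in WT (-0.60, adjusted p = 5.46e-05). BEH3 went the other way in them, at 7.32 ± 0.00984 FPKM against 4 ± 0.184 FPKM in WT (0.73, limma adjusted p = 0.000141).

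Of 11 genes known to be induced by brassinosteroid, 5 fell and 0 rose in CRY2oe (7 and 0 rescaled) and 7 fell and 0 rose in the ubp12ubp13-labelled libraries (8 and 0 rescaled). In cry2-1 4 rose and 2 fell (3 and 2 rescaled), and in UBP13oe 4 rose and 1 fell (3 and 2 rescaled). The falls came to 45.5% in CRY2oe and 63.6% in the ubp12ubp13-labelled libraries, beside 9.63% and 22.2% of all genes. The rises in cry2-1 and UBP13oe, 36.4% each, were near the 31.7% and 35.2% of all genes. KCS1, a fatty acid elongase gene, was at 62.7 ± 2.16 FPKM in CRY2oe, 133 ± 0.255 FPKM in cry2-1, 63.7 ± 2.6 FPKM in the ubp12ubp13-labelled libraries and 128 ± 4.4 FPKM in UBP13oe, against 82.1 ± 0.0998 FPKM in WT, and each of these differences from WT was called. TUB8, a tubulin gene, moved likewise, at 87.6 ± 2.32, 151 ± 3.57, 62.2 ± 6.26 and 155 ± 3.79 FPKM in CRY2oe, cry2-1, the ubp12ubp13-labelled libraries and UBP13oe, against 119 ± 0.83 FPKM in WT, and its rise in cry2-1 was not called after rescaling (adjusted p = 0.053). TCH4, a cell wall enzyme gene, was at 30.4 ± 2.88 FPKM in the ubp12ubp13-labelled libraries, against 117 ± 10.3 FPKM in WT (-1.91 on the log2 scale, limma adjusted p = 8.71e-06), and also fell in cry2-1 (66.5 ± 1.18 FPKM) and in UBP13oe (85.4 ± 9.53 FPKM, adjusted p = 0.0226), where it was the 1 induced target that fell. Between CRY2oe and cry2-1, 1 of the 11 rose and 7 fell (1 and 7 rescaled), and between the ubp12ubp13-labelled libraries and UBP13oe 0 rose and 8 fell (0 and 8 rescaled), falls of 63.6% and 72.7% beside 24% and 32.1% of all genes. Many of these genes also answer to auxin or light.

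Among 3 genes known to be repressed by brassinosteroid, IBH1, an inhibitor of cell elongation, was at 19 ± 0.471 FPKM in CRY2oe, 44.1 ± 1.59 FPKM in cry2-1 and 15.5 ± 0.119 FPKM in the ubp12ubp13-labelled libraries, against 28.3 ± 2.09 FPKM in WT, all called. GATA2, a light-response factor gene, was at 26.3 ± 0.947 FPKM in cry2-1, 24 ± 1.5 FPKM in the ubp12ubp13-labelled libraries and 10.2 ± 1.96 FPKM in UBP13oe, against 16.3 ± 0.0156 FPKM in WT, all called. All 3 rose in cry2-1 (2 rescaled), 1 fell in CRY2oe, 1 rose and 2 fell in the ubp12ubp13-labelled libraries, and 2 fell in UBP13oe, each but the first the same rescaled. All 3 fell in CRY2oe against cry2-1 (1 rescaled), and 1 rose and 1 fell in the ubp12ubp13-labelled libraries against UBP13oe. Of all genes, 31.7% rose in cry2-1, 9.63% fell in CRY2oe, 8.74% fell in UBP13oe and 24% fell in CRY2oe against cry2-1. In the ubp12ubp13-labelled libraries 34.6% of all genes rose and 22.2% fell against WT, and 20.8% and 32.1% against UBP13oe.

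**Figure D3:**
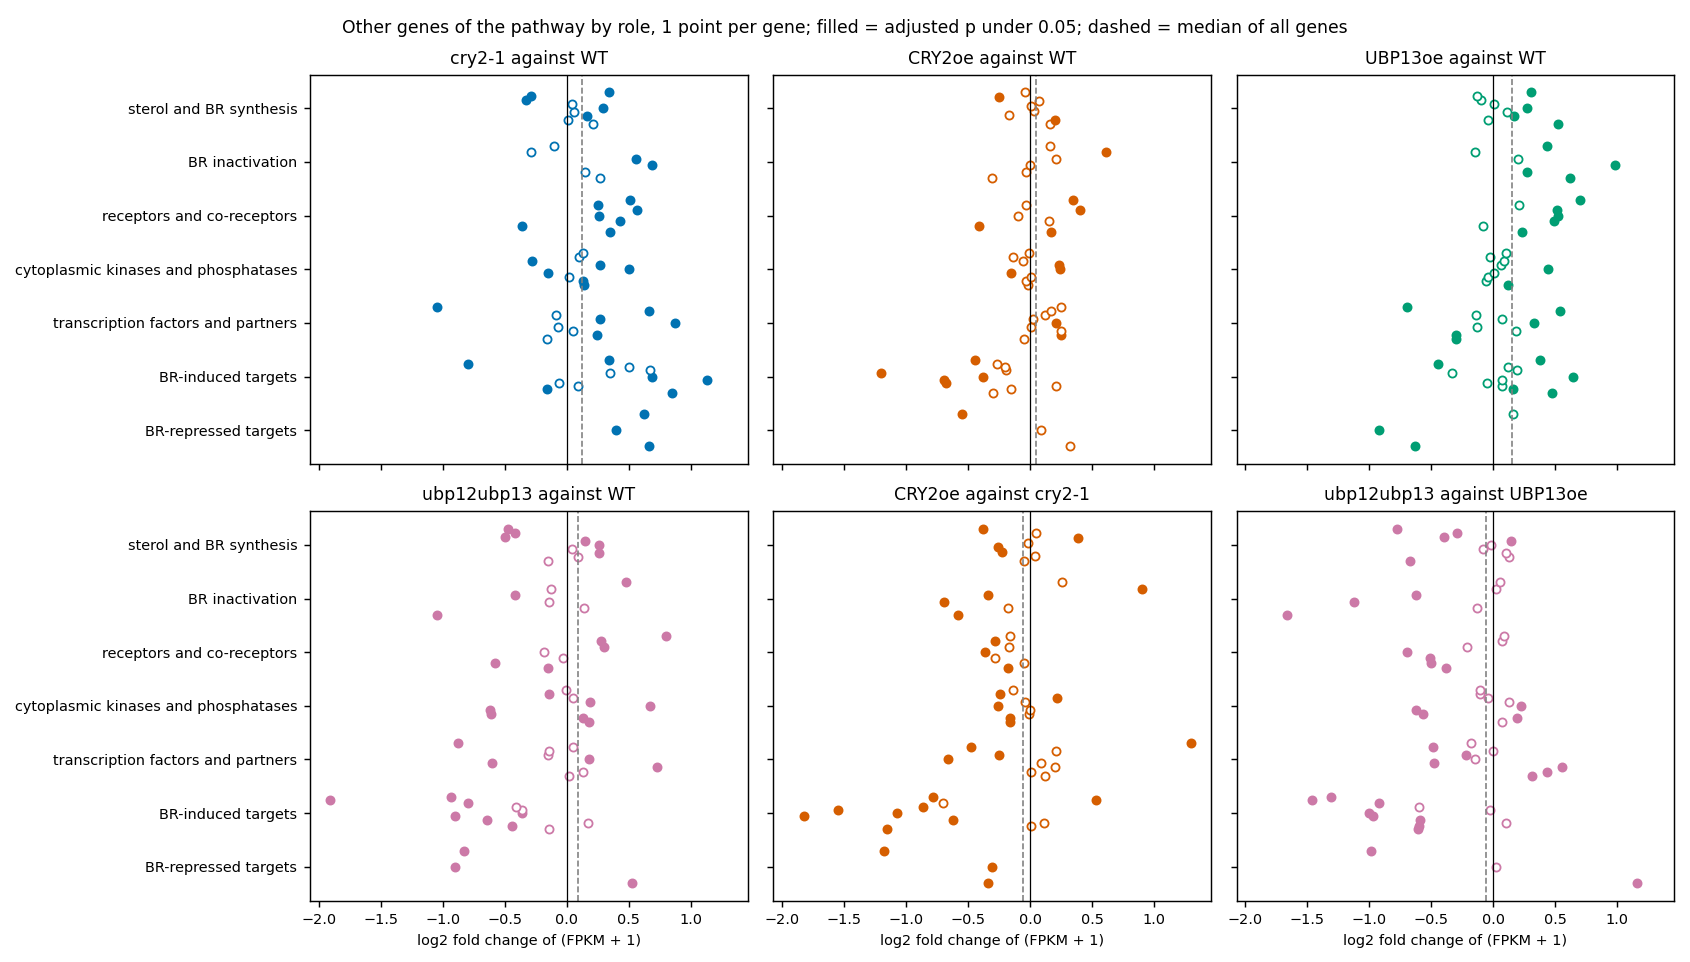
Log2 fold change of (FPKM + 1) of the other pathway genes (horizontal axes) by role in the 6 comparisons, 1 point per gene; filled points were called at an adjusted p under 0.05, and the dashed line is the median of all genes tested. Of the 11 induced targets, 7 have filled points left of 0 in the ubp12ubp13-labelled libraries against WT and 8 in the same libraries against UBP13oe.

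Markers of organs moved with the same genotypes. The labelled tissue was whole seedlings, and markers of cotyledon and root were present in all libraries, while the 6 seed markers summed to at most 31 FPKM in a library. The 7 root markers, CASP1, CASP2, CASP5, TIP2-3, PYK10, EXPA7 and COBL9, summed to 1574 and 1655 FPKM in CRY2oe, 3019 and 2828 FPKM in cry2-1, 1942 FPKM in each of the ubp12ubp13-labelled libraries and 3110 and 3267 FPKM in UBP13oe, against 2015 and 1875 FPKM in WT. PYK10 made up most of this sum, at 1715 ± 6.34 FPKM in the ubp12ubp13-labelled libraries and 2602 ± 138 FPKM in UBP13oe, against 1458 ± 92.2 FPKM in WT. CASP1, CASP2, CASP5 and TIP2-3 fell in the ubp12ubp13-labelled libraries, with changes of -0.76 to -1.51 on the log2 scale. EXPA7, COBL9 and PYK10 rose in them, by 1.02, 0.71 and 0.24, so the root markers did not move as one. In CRY2oe against cry2-1, EXPA7 and COBL9 were likewise higher (1.07 and 0.50) while the other 5 were lower. In UBP13oe CASP5 and TIP2-3 were at -0.0025 and 0.22 and not called. Of these 7, CRY2oe had 0 up and 4 down, cry2-1 had 5 up and 0 down (5 and 1 rescaled), the ubp12ubp13-labelled libraries had 3 up and 4 down (2 and 4 rescaled), and UBP13oe had 3 up and 0 down (2 and 0 rescaled). The 5 cotyledon and leaf markers summed to 14942 and 14880 FPKM in CRY2oe, 10064 and 10478 FPKM in cry2-1, 23697 and 23091 FPKM in the ubp12ubp13-labelled libraries and 14326 and 13957 FPKM in UBP13oe, against 12362 and 11730 FPKM in WT. All 5 rose in the ubp12ubp13-labelled libraries (4 rescaled). Those of cry2-1 had 1 up and 3 down (0 and 3 rescaled), and CRY2oe and UBP13oe had 2 up and 0 down each (2 and 0, and 1 and 1 rescaled). Of the 5 seed markers tested, 3 fell in CRY2oe, 2 in cry2-1, 1 in the ubp12ubp13-labelled libraries and all 5 in UBP13oe. In the ubp12ubp13-labelled libraries 4 were higher than in UBP13oe (3 rescaled), where 20.8% of all genes were higher. OLEO2, OLEO1 and CRA1 were low and uneven in WT, at 12.2 and 3.3, 3.16 and 0.757, and 3.82 and 0.683 FPKM. EM1 and EM6 were low but closer, at 3.9 and 4.7 and at 7.42 and 6.59 FPKM. Beside these marker counts, 16.5% of all genes rose and 9.63% fell in CRY2oe, and 31.7% and 11.8% in cry2-1. The shares of all genes were 34.6% and 22.2% in the ubp12ubp13-labelled libraries and 35.2% and 8.74% in UBP13oe. Root markers rose at 42.9% in each of the latter. None of these root and cotyledon markers was at 0 in any library. The part of organ proportions in the values of the members was not tested.

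**Figure D4:**
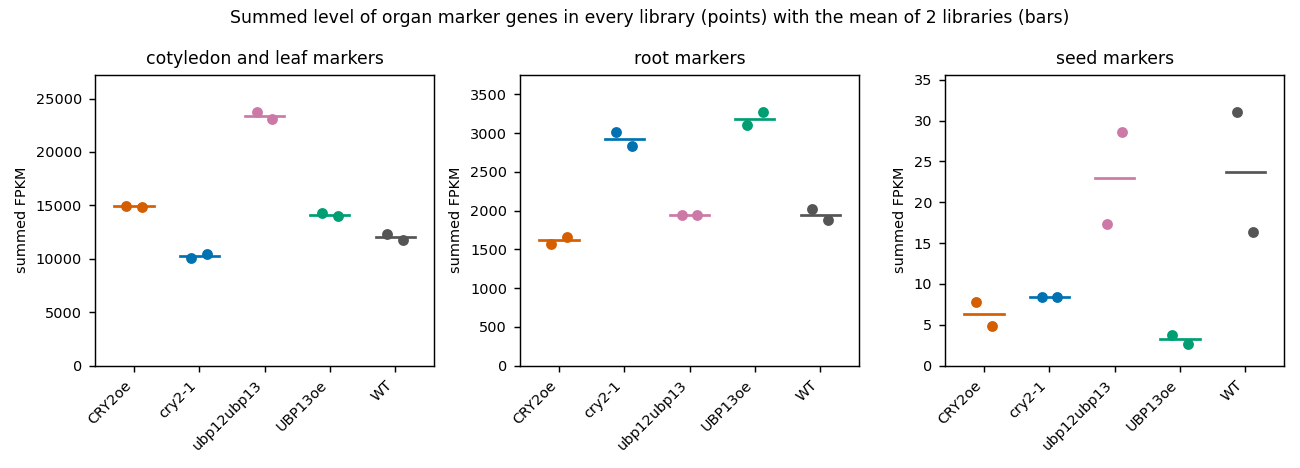
Summed FPKM of 5 cotyledon and leaf, 7 root and 6 seed marker genes (vertical axes from 0) in every library by genotype; points are libraries and bars the mean of 2. The sum of root markers, most of it PYK10, is higher in both cry2-1 and both UBP13oe libraries than in any other, and cotyledon markers are highest in the ubp12ubp13-labelled libraries.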

How the data were processed

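RNA was sequenced in 10 libraries, 2 per genotype, from poly(A) RNA with a directional kit, per the labels' protocols. The submitters' processing notes name TAIR10, Cufflinks 2.1.1 and STAR, the last without a version. The authors deposited 1 table of FPKM values per library, estimated for 33557 genes, per the file headers. No source used here says whether counting took account of strand. Failed or skipped estimates (15 entries at 10 loci, none of a member) were treated as missing. A count test was not used, since FPKM are not counts. Short or overlapping loci have less certain values.

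The 19957 genes that reached 1 FPKM in 2 libraries or more entered a limma-trend fit of log2(FPKM + 1) with a mean per genotype over all 10 libraries (5 residual and 3.15 prior degrees of freedom). A pseudocount of 1 understates changes of low genes such as BR6OX1. For each of the 6 comparisons, two-sided p-values were adjusted by Benjamini and Hochberg's method and called at 0.05. With 2 libraries a genotype an exact permutation cannot reach that threshold. The labels call the replicates biological. Depth came from intronless genes between 800 and 4000 bp with up to 6 fragments, of which 96.6% to 98.8% of values came out whole within 0.1 fragment. Errors given from it cover counting only. The fit was also run on simulated data in which few genes changed and the median of all genes did not shift. Many genes were called here and the median shifted, so that run does not bear on these calls or on the scaling.

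The members, gene lists and naming rule (all members, and examples from up to 4 called genes per role and comparison with the smallest adjusted p) were chosen with earlier results of these data known. Also tried were no filter, a filter at a mean of 5 FPKM, a pseudocount of 0.1, median-of-ratios rescaling, a replicate block, only the 4 libraries compared, no variance trend and leaving out each library, where the lone partner takes on the spread of the rest. Scaling to nuclear FPKM and failed estimates taken as 0 were added after seeing the data. Upstream windows come from RefSeq (TAIR10.1) by its own gene starts, and loci matched by identifier. Tools were R 4.3.3, limma 3.58.1, Python 3.11.15, pandas 2.3.3 and Biopython 1.88. A further root marker is not reported here.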

Additional observations from a re-analysis of the deposited data

How the results depend on the processing

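Of the 60 changes of members in the 6 comparisons, none with a call changed sign under any of the 19 alternatives. Over the alternatives that keep all libraries, 36 single results lost their call, 6 gained one and 498 kept their side of the threshold, and over those that leave out a library 71 lost it, 6 gained one and 523 kept it. The falls of CPD in all 4 genotypes and the changes of BES1 in CRY2oe and UBP13oe held throughout. The counts of members called moved with no filter, to 2 in cry2-1, 3 in CRY2oe and 4 in CRY2oe against cry2-1. In CRY2oe the count was also 3 with only the 4 libraries compared and without the variance trend. With a library left out, the counts ranged from 2 to 5 in CRY2oe, 2 to 4 in cry2-1, 3 to 6 in the ubp12ubp13-labelled libraries, 4 to 6 in UBP13oe, 3 to 7 in CRY2oe against cry2-1 and 6 to 8 in the ubp12ubp13-labelled libraries against UBP13oe. The cause was not tested. All genes called in CRY2oe, 5224 of 19955, came to 2194 with only the 4 libraries compared, 2662 without CRY2oe replicate 1 and 2152 without replicate 2, and the 8767 of UBP13oe to 5613 without UBP13oe replicate 2.

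Replicate numbers showed no strong shared difference: differences between replicates 1 and 2 correlated across genes at -0.09 to 0.15 between genotypes, over 0.1 in 1 of 10 pairs. A weak pairing could also give such low values, so whether the samples were paired was not settled. With a replicate block the counts of members were 4 in CRY2oe, 4 in cry2-1, 5 in the ubp12ubp13-labelled libraries, 5 in UBP13oe, 7 in CRY2oe against cry2-1 and 7 in the ubp12ubp13-labelled libraries against UBP13oe. Scaled to nuclear FPKM, the calls of BZR1 in CRY2oe, DET2 in the ubp12ubp13-labelled libraries, ROT3 in UBP13oe, and CPD and BRI1 against UBP13oe were lost. Depth limits BR6OX1 most.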
